A study of Rattus norvegicus with 67 samples.

Results

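Isolated sites of histone retention were described in sperm of F3 generation rats. A site is a window of 1000 bp of the Rnor 6.0 genome that stands alone, with a raised level in the window itself and lower levels in both of its neighbours. The sites were chosen on 9 control lineage males without disease, M2, M6, M8, M9, M12, M13, M14, M16 and M18. For each window the reads per 1000000 reads of the library (RPM) were averaged over these 9 animals and divided by the median of 0.38 RPM over all windows of chromosomes 1 to 20 with a mean above 0. A window with a ratio from 2 to below 5 was taken when both adjacent windows had a ratio below 2. This rule gave 8481 sites of 2618741 windows on these chromosomes, and 14.6% of the 58151 windows with a ratio from 2 to below 5.

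During the last part of spermatogenesis most histones are replaced by protamines, small basic proteins that pack the DNA tightly. Some nucleosomes stay, and the histones and histone modifications of these stretches can reach the embryo with the sperm. In ChIP-Seq the DNA that an antibody brings down with the retained histones is sequenced, so that a window with many reads is read as a window where histones were retained.

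The samples are sperm of males at 1 year of age of an outbred Sprague Dawley stock, from 2 lineages. In the atrazine lineage the F0 females were given 25 mg/kg of the herbicide atrazine by daily injection on gestation days 8 to 14, and in the control lineage the solvent dimethyl sulfoxide (DMSO), while the F3 males themselves were not exposed. The groups with counts are 9 control lineage animals without disease, 7 control lineage animals with disease, and, in the atrazine lineage, 19 animals without disease, 5 lean, 3 with kidney disease, 4 with testis disease, 5 with late puberty and 14 with multiple disease. Control lineage animal M1 has no counts. The treatment tag of the labels says atrazine for all control lineage animals and DMSO for 13 animals of the atrazine lineage, and the lineage of the titles was followed. The study describes the immunoprecipitation as one with a histone H3 antibody, and its methods also list an antibody against H3 trimethylated at lysine 27. They also describe pools of sperm, whereas the counts are given animal by animal. A library of DNA without immunoprecipitation was not used here, so the level of a window holds the retention of histones and the number of copies of the sequence in the animal together.

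Total counts were between 19909382 and 239635003 per animal, and the median site held between 6 and 202 reads per animal, with a median of 50 over the 66 animals. No pair of animals had the same counts. The counting error of a site is large at this depth: over the 17 atrazine lineage animals without disease that the disease comparisons use, the SD that the read numbers alone would give had a median of 0.223 on the log2 scale, against a median observed SD of 0.301. Animals M48 and M28 stood apart. In M48, of the multiple disease group, 0.553% of all reads lay in the sites, and in lean animal M28 0.607%, against 0.692% to 0.789% in the other 64 animals. The comparisons of disease groups and lineages that hold these animals are given with and without them.

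**Figure D1:**
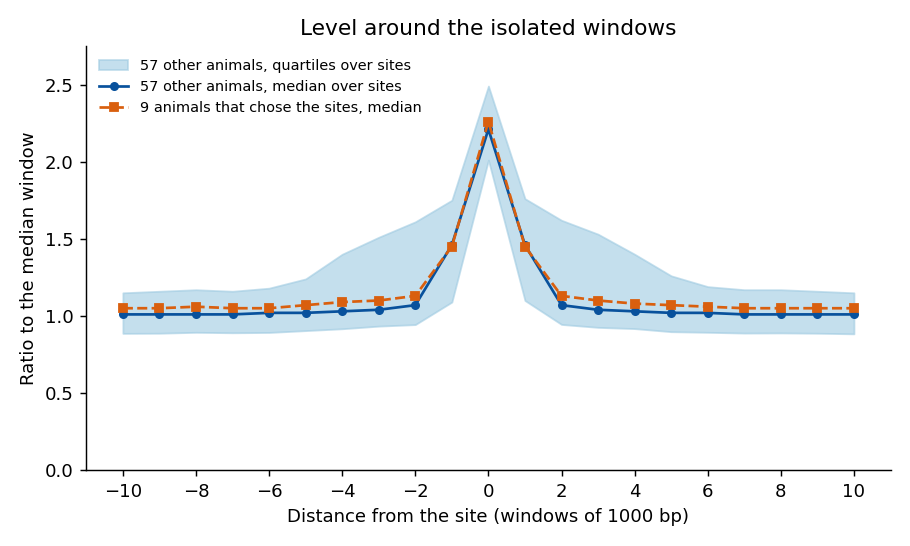
Median ratio to the median window (y axis) at each distance from a site in windows of 1000 bp (x axis), in the 9 animals that chose the sites (squares) and in the 57 other animals (circles, with the quartiles over the sites as a band). The level falls from 2.21 at the site to 1.46 in both adjacent windows and to 1.07 at 2 windows in the other animals.

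By the rule, the sites had ratios from 2 to 4.99 in the 9 animals, with a median of 2.26 and quartiles of 2.11 and 2.52, and 73.9% of them lay below 2.5. Only 535 sites reached a ratio of 3 and 88 a ratio of 4. In RPM, the mean level of a site was between 0.761 and 1.9, with a median of 0.861. These values chose the sites and are a description. Just inside the lower limit were chr9:105903001-105904000 with a ratio of 2.000035 and chr1:159740001-159741000 with 2.000045, and just outside it chr16:36960001-36961000 with 1.999959 and chr4:137055001-137056000 with 1.999951. At the upper limit, chr13:88357001-88358000 with 4.99295 was taken and chr2:161692001-161693000 with 5.002687 was not. The highest adjacent window of a site, between chr10:87609001-87610000 and chr10:87611001-87612000, had a ratio of 1.999994, and a window beside an adjacent window of 2.000019, chr20:1049001-1050000, was left out. Another 2538 windows with both adjacent windows below 2 had a ratio from 1.9 to below 2, and 1981 sites a ratio below 2.1, so that the lower limit runs through the dense part of a continuous distribution. At the other end, 135 isolated windows had a ratio of 5 or more.

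The sites lay on every chromosome from 1 to 20. There were 1108 on chromosome 2 and 1106 on chromosome 1, the largest numbers, and 117 on chromosome 12. Per 10000 windows with reads, chromosome 15 had the most sites with 48.3, followed by chromosome 2 with 43.8 and chromosome 1 with 41.1, and chromosome 10 had the fewest with 14.6. Chromosome 10 also had the fewest windows with a ratio from 2 to below 5, isolated or not, with 94.5 per 10000. The share of such windows that were isolated ranged from 11.4% on chromosome 19 to 17.6% on chromosome 12. Neighbouring sites were a median of 101 windows apart, with quartiles of 21 and 352 windows, and 496 pairs of sites had 1 window between them. Of the 2629 stretches of 1 Mb with reads, 2101 held a site and 43 held at least 20. These 43 stretches held 1227 sites, 14.5% of all. The densest was the first Mb of chromosome 2 with 46 sites, followed by chr15:31000001-32000000 and chr7:21000001-22000000 with 45 each. The same stretches held 370, 195 and 342 further windows with a ratio from 2 to below 5, so windows with a raised neighbour outnumbered the sites there. In the 2 Mb at either end of the chromosomes lay 484 sites, 5.71% of them, where 2.94% of all windows with reads lie. Within 2 windows of a window without any reads in the 9 animals lay 684 sites, 8.07%, against 3.79% of all windows with reads. No genes or sequence features are assigned to the sites, as no annotation of the Rnor 6.0 build was used apart from gene names in the study's lists of regions.

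The 57 animals that did not choose the sites had raised levels at most of them. In the mean over these animals the median ratio was 2.21, and 6438 of the 8481 sites, 75.9%, had a ratio of 2 or more. Without M28 and M48 the share was 79.3%. The lowest site had a ratio of 1.39 and the highest 6.45. The share at 2 or more followed the ratio that chose the site. It was 43.2% of the 1981 sites chosen at a ratio below 2.1, 78.7% of the 4285 from 2.1 to below 2.5, 99.7% of the 1680 from 2.5 to below 3, and 100% of the 535 sites from 3. Among the 49670 other windows chosen at a ratio from 2 to below 5, which have a raised neighbour and a higher median ratio of 2.67 in the 9 animals, 92.6% had a ratio of 2 or more in the 57 animals.

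**Figure D2:**
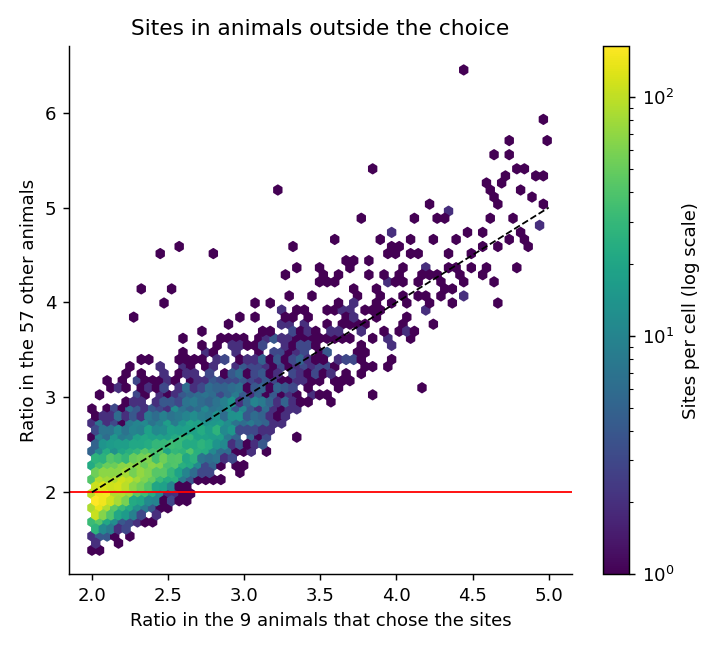
Ratio of each of the 8481 sites in the 57 animals that did not choose them (y axis) against its ratio in the 9 animals that did (x axis), with the number of sites per cell as colour on a log scale. The dashed line marks equal ratios and the red line a ratio of 2, which 75.9% of the sites reach in the 57 animals.

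The share of the sites at a ratio of 2 or more was 80.1% in the mean of the 7 control lineage animals with disease, 79% in the 19 atrazine lineage animals without disease, 79% with kidney disease, 79.6% with testis disease, 79.6% with late puberty and 76.5% with multiple disease. In the mean of the 5 lean animals it was 61.4%, with a median ratio of 2.14 against 2.24 to 2.31 in the other groups that did not choose the sites. Animal by animal, the share was 49.1% in lean animal M28, 56.8% in lean animal M42, 50.7% in multiple disease animal M48 and 59.4% in M22, an atrazine lineage animal without disease. The other 3 lean animals reached 72% to 75.7%, within the 59.4% to 79.6% of the 19 animals without disease.

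The sites also stood over their own surroundings in animals that did not choose them. Within 1 animal the library total cancels in this measure, and in a sum over animals deeper libraries weigh more. In the sum over the 57 animals a site held a median of 1.54 times the mean of its 2 adjacent windows, with quartiles of 1.31 and 1.88, over the 8195 sites with at least 100 reads in each adjacent window. Of these, 1564 sites, 19.1%, held 2 times the reads of their flank or more, and 1084 held less than 1.2 times. Over all sites, 8000 exceeded both neighbours in the summed reads. In a single animal a site exceeded both neighbours in a median of 45 of 57 animals, 539 sites did so in all 57, and 254 in fewer than 20. The lowest was 3 animals. The profile around the sites was symmetric, with a median ratio of 1.46 in the window on either side, and the left neighbour was the higher one at 4184 sites and the right one at 4279. The neighbours of 1 site were not alike: the higher of the 2 had a median ratio of 1.68 and the lower 1.19. Both adjacent windows were at a ratio of 1.5 or more at 2130 sites, and both were below the median window at 398. A neighbour below a ratio of 0.5 was seen at 649 sites, 7.65% of them, and 198 sites had a neighbour without a single read in the 57 animals.

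**Figure D3:**
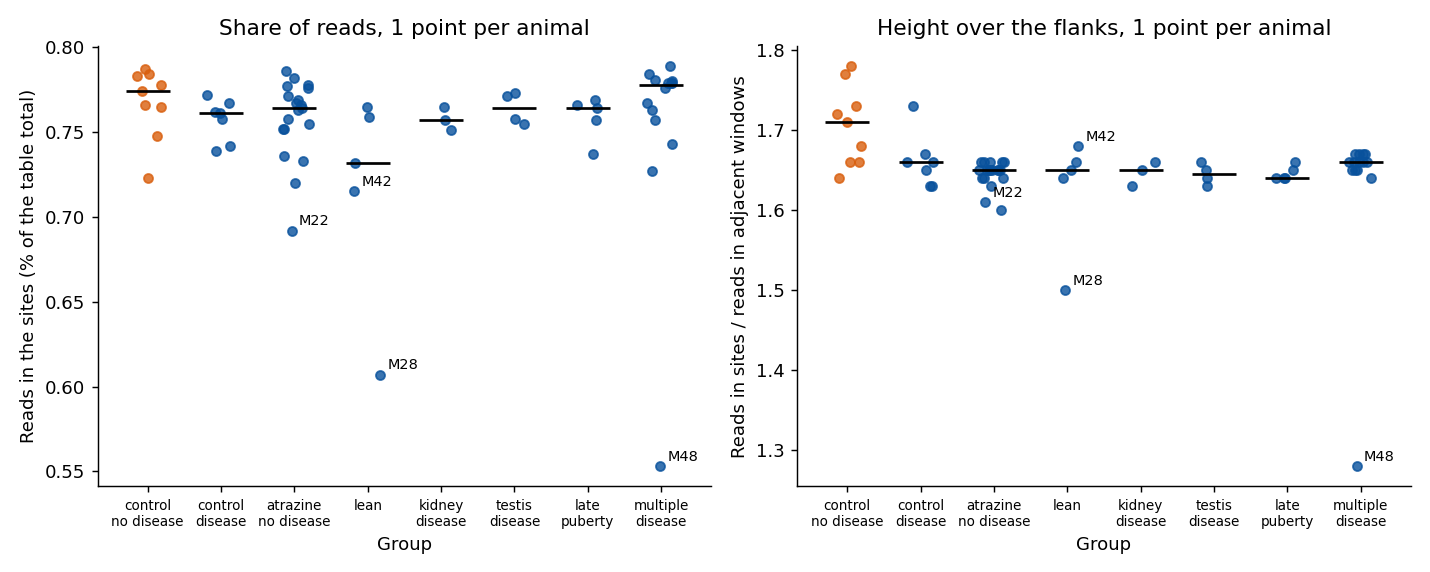
Share of the reads that fall in the sites, in percent (left), and reads in the sites over the mean of their adjacent windows (right), with 1 point per animal by group and the group median as a line. The 9 animals that chose the sites are in orange, the y axes do not start at 0, and M48 and M28 lie below all other animals in both measures.

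Per animal, the reads in all sites were 1.6 to 1.68 times those of their flanks in the atrazine lineage animals other than M28 and M48, and 1.63 to 1.73 times in the 7 control lineage animals with disease. The value was 1.5 in M28 and 1.28 in M48. In the 9 animals that chose the sites it was 1.64 to 1.78, which the rule fixes in part.

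The sites with the highest ratio to their flanks stood between windows well below the median window. The highest was chr8:15574001-15575000 on chromosome 8, at 23.6 times its flank, with a ratio of 4.95 in the 57 animals beside neighbours of 0.205 and 0.213. It held 1.19 to 2.7 RPM in the 19 atrazine lineage animals without disease, with a median of 1.98, and exceeded both neighbours in all 57 animals. Next came chr1:179431001-179432000 at 17.1 times its flank, chr9:8965001-8966000 at 14 times, chr20:4709001-4710000 at 13.3 times and chr13:44397001-44398000 at 13.2 times. Their neighbours had ratios between 0.131 and 0.373. All 4 exceeded both neighbours in at least 56 of 57 animals. The levels of chr20:4709001-4710000 overlapped between all groups, from 0.315 to 1.22 RPM in the 19 animals without disease to 0.793 to 1.31 in the 5 lean animals, and the spread of chr13:44397001-44398000 reached from 0 RPM in M48 to 1.4 in control lineage animal M5.

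The spread of a site over animals was measured as the SD of log2 RPM, with 0.05 RPM added, over the 17 atrazine lineage animals without disease. All 8481 sites had the mean of 20 reads asked for. The median SD was 0.301, with a 5th percentile of 0.203 and a 95th of 0.448. Counting error follows depth, so the values of other windows are given with theirs: the 49670 other windows with a ratio from 2 to below 5 had a median SD of 0.284 with a counting SD of 0.206, the 4783 windows with a ratio of 5 or more 0.244 with 0.117, and all 1748218 windows with at least 20 reads 0.399 with 0.336. Only 164 sites, 1.93%, had an SD of 0.5 or more, and 21 had 0.7 or more.

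The sites with the smallest spread were chr1:54461001-54462000 with an SD of 0.12, and chr9:7446001-7447000, chr20:4779001-4780000, chr4:184216001-184217000 and chr7:55909001-55910000 with 0.13 each. Each of these SDs is below the SD that counting alone gives on average for the same reads, 0.16 to 0.21. At chr1:54461001-54462000 the 17 animals held 1.28 to 1.88 RPM with a median of 1.62. Both of its neighbours had a ratio of 0 in the 57 animals. At chr20:4779001-4780000 the 17 animals held 1.4 to 2 RPM with a median of 1.65, and the 9 animals that chose the site 0.868 to 1.84 with a median of 1.27.

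The 5 sites with the largest spread were chr16:64924001-64925000 with an SD of 1.04, chr7:10264001-10265000 with 1.02, chr17:57731001-57732000 with 0.99, chr12:21886001-21887000 with 0.96 and chr5:77651001-77652000 with 0.95. These were of different kinds. At chr17:57731001-57732000 the spread came from 1 animal: M67 held no read there, which allows up to 3 reads, while the 17 animals had a median of 0.648 RPM and a highest value of 1.08. A count of 0 covers counting error only. At chr12:21886001-21887000 the level ran from 2 reads, or 0.048 RPM, in M25 to 1.37 RPM in M45, with a median of 0.781. The other 3 sites were at a similar level in most animals and several times higher in a few.

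At chr16:64924001-64925000 the 9 animals that chose the site held 0.613 to 1.23 RPM with a median of 0.935. The 17 atrazine lineage animals without disease held 0.487 to 7.58 RPM with a median of 1.17, and M24 was the highest. The 7 control lineage animals with disease held 0.904 to 3.12 RPM with a median of 0.967, and M17 was the highest. Lean animals held 0.798 to 2.34 RPM with a median of 1.02, and M28 was the highest. Kidney disease and late puberty animals held at most 1.3 and 1.33 RPM. Of the 4 testis disease animals, M32 held 0.988 RPM and the other 3 between 3.78 and 4.63. In the 14 multiple disease animals the level ran from 0.0992 RPM in M48 to 6.7 in M26, with a median of 1.01. The sites that varied with it were found after these values were seen, as those whose log2 RPM correlated with it at r above 0.6 over the 57 animals, and they are given as a description. There were 12, the first included: 6 between 64900001 and 64983000 on chromosome 16, 2 on chromosome 5 at 77651001 and 77687001, 2 on chromosome 7 at 10264001 and 10267001, 1 on chromosome 6 at 17360001 and 1 on chromosome 1 at 181630001. The points share the library, and r was between 0.646 at chr1:181630001-181631000 and 0.948 at chr16:64927001-64928000.

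**Figure D4:**
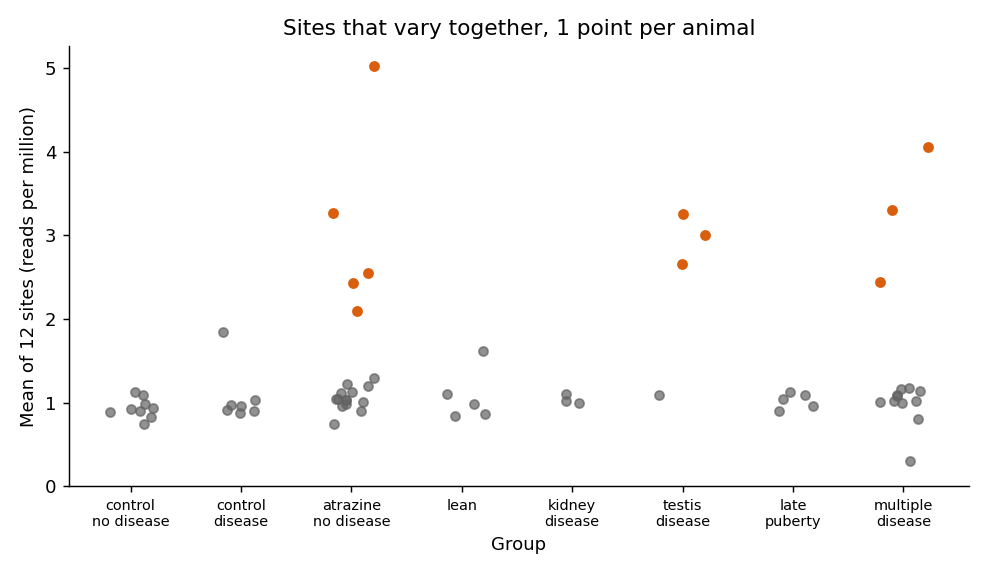
Mean level of the 12 sites that vary together in RPM (y axis), 1 point per animal by group (x axis). The 11 animals with at least 2 times the median animal are in orange, between 2.1 and 5.03 RPM, and the other 55 animals lie between 0.298 and 1.84 RPM.

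No cause of this shared variation was tested. In the mean of these 12 sites the median animal held 1.04 RPM, and 11 animals held at least 2 times as much. They were M24, M40, M39, M20 and M62 without disease, M41, M29 and M33 with testis disease, and M26, M27 and M19 with multiple disease. None of the 7 control lineage animals with disease was among them, and none of the animals with only lean, kidney disease or late puberty. By the labels, the multiple disease of M27 is prostate disease and lean, and that of M26 is testis disease and obese. For M19 the label says only multiple. Multiple disease animals M21, M37, M52 and M48, with testis disease among others, held 1.02, 1.18, 1.02 and 0.298 RPM and were not among the 11. Neither were M61, with prostate disease and lean, at 1.09 RPM, and testis disease animal M32, also at 1.09. The 9 animals that chose the sites were not among the 11 either, and the rule, which limits their mean level, fixes this in part. Below these 11, the highest were M17 of the control lineage with 1.84 RPM and lean animal M28 with 1.62, and all other animals lay at 1.29 RPM or below. The neighbours of chr16:64924001-64925000 also had high ratios in the 57 animals, 3.11 and 2.82, so that in the mean over these animals the window did not stand alone.

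A few animals departed from the rest at many sites at once. A site was counted as departed in an animal where its log2 RPM was at least 1 above or below the median of the 57 animals. A median of 1 site was departed upward and 29 downward per animal over the 66 animals. In M48, 5787 sites were departed downward and 592 upward, and in M28 1847 and 295. In lean animal M42, 672 sites were departed downward, in control lineage animal M17 381, in M3 of the control lineage 249, in M22 218 and in M67 198, and M22 also had 122 departed upward. M3, M48 and M67 have shallow libraries of 19909382, 20151792 and 22211333 counts, and M28 has 26487836 counts. By the labels, M48 has late puberty, testis disease, kidney disease and lean, and M17 has kidney disease and lean. M3 has late puberty and is obese, and M22 and M67 have no disease. The other animals with lean in their label had from 4 sites departed downward, in M27 and M58, to 154 in M63. The sites lowered in M42 were lower in M17 too: their median log2 difference from the median animal was -1.3 in M42, -0.74 in M17 and -0.56 in M22, and 215 sites were departed downward in both M42 and M17. Of the 672 sites, 121 lay on chromosome 1, which holds 1106 of all 8481 sites. In M25, 55 sites were departed downward, 16 of them on chromosome 12, which holds 117 of all sites. Of the sites, 68.2% were departed downward in M48, 21.8% in M28, 7.92% in M42 and 4.49% in M17. Among the other windows with a ratio from 2 to below 5 the shares were 71.5%, 24.4%, 6.99% and 3.83%. These animals were therefore low at windows with raised neighbours as well. Upward, it was 6.98% of the sites against 8.82% of the other windows in M48, 3.48% against 4.52% in M28 and 1.44% against 1.94% in M22. The part of library quality in these departures was not tested.

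Disease groups were compared with the 17 atrazine lineage animals without disease, and the animals that chose the sites took no part. The 17 are those in the study's own tables of the diseases, which hold no counts of M59 and M68, also without disease. All 8481 sites passed the filter, 10 reads per animal in the mean, in each comparison. The test was edgeR's quasi-likelihood test over all windows that passed, p-values are two-sided, and adjusted p-values are Benjamini-Hochberg adjusted over all these windows. A window was called at p below 0.0001, the threshold of the study. The study took its edgeR p-values through the MEDIPS package, and the numbers called here are not compared with its own. No site had an adjusted p below 0.05 in any of the comparisons. The lowest was 0.239 in the lean comparison and 1 in the others. The counts are given animal by animal, and litters were not taken into account.

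**Figure D5:**
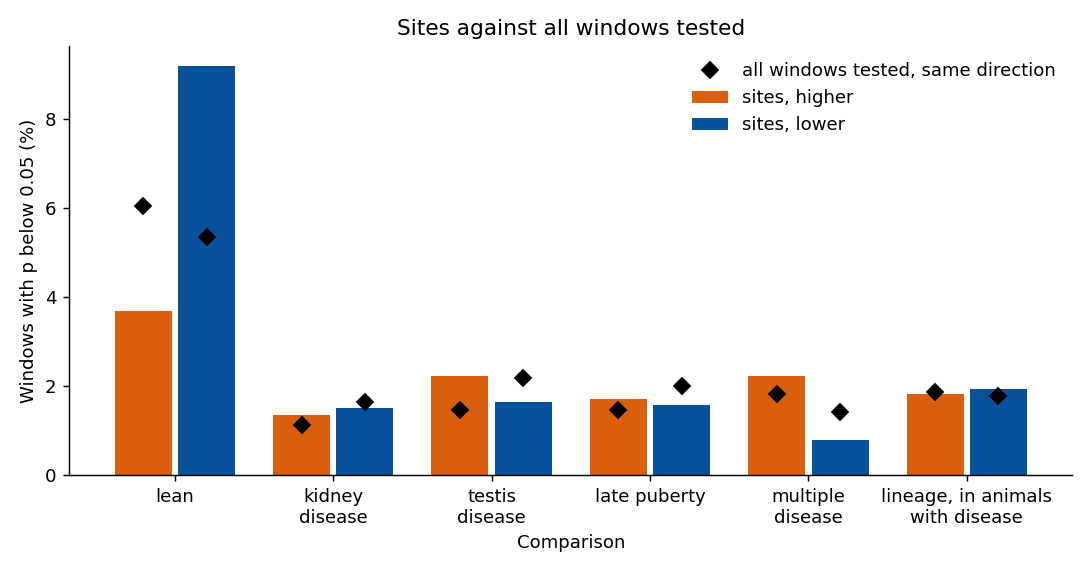
Percentage of the 8481 sites with p below 0.05 (y axis) that were higher (orange) or lower (blue) in the disease group in each comparison (x axis), with the same percentage of all windows tested as diamonds. In the lineage comparison, higher and lower refer to the atrazine lineage. In the lean comparison 9.19% of the sites were lower against 5.35% of all windows, with 222 sites lower in place of 779 once M28 and M42 are left out, and in the other comparisons the sites lie within 1 percentage point of all windows in each direction.

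In the comparison of 5 lean animals, 4 sites were called, 0.0472%, where 0.0401% of all windows were called. The count ran from 2 to 24 when 1 lean animal was left out, and the share of a random sample of the windows moved with it. Without M42 it was 2 sites, 0.0236% against 0.012% of the sample, and without M28 3 sites, 0.0354% against 0.016%. Without M56 it was 11 sites, 0.13% against 0.055%, without M66 17 sites, 0.2% against 0.141%, and without M54 24 sites, 0.283% against 0.103%. Against all 19 animals without disease 9 sites were called, 0.106% against 0.076%, and without M28 and M42 1 site, 0.0118% against 0.004%. Of the 4, 1 was higher and 3 were lower, where 0.0169% and 0.0232% of all windows were. The weaker threshold of p below 0.05 was passed by 1091 sites, 12.9%, against 11.4% of all windows, 15% of the other windows with a ratio from 2 to below 5 and 21.9% of those with a ratio of 5 or more. Of the other windows with a ratio from 2 to below 5, 0.0765% were called. Among the 1091 sites the direction differed from that of all windows. Of these sites, 779 were lower in lean animals, 9.19% of the sites against 5.35% of all windows, and 312 were higher, 3.68% against 6.04%. The median log2 fold change over the sites was -0.078, and 0.009 over all windows. The other windows with a ratio from 2 to below 5 had a median of -0.118, and those with a ratio of 5 or more -0.064, so windows with a high level were lower in general. These values changed most when 2 animals were left out together. Without M28, 486 sites were lower and 153 higher, 7.53% in all against 6.32% of a random sample of the windows tested, with a median log2 fold change of -0.034. Without M42, 428 were lower and 271 higher, 8.24% against 6.92%, with a median of -0.069. Without M28 and M42, 222 were lower and 140 higher. That last total was 4.27% of the sites against 4.05% of the sample, with a median log2 fold change of -0.006 in both. The removal of both animals was chosen after their values were seen, and M28 and M42 are also the lean animals with most sites departed downward.

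Of the 4 called sites, the 3 lower ones come first. At chr14:96938001-96939000 the lean animals held 0.264 RPM (M28), 0.491 (M42), 0.891 (M54), 0.62 (M56) and 0.503 (M66), and the 17 animals without disease 0.751 to 1.45 with a median of 1.09. Among the lean animals, only M54 lay within the range of the others. The log2 fold change was -0.86 (SE 0.19, edgeR p = 2.03e-05, adjusted p = 0.239). At chr1:37644001-37645000 the lean animals held between 0.169 RPM in M42 and 0.729 in M56, and the animals without disease 0.612 to 1.58 with a median of 0.89, a log2 fold change of -1.01 (SE 0.22, edgeR p = 2.44e-05, adjusted p = 0.239). At chr2:156176001-156177000 the lean animals held between 0.384 RPM in M66 and 1.1 in M54, and the animals without disease 0.578 to 1.71 with a median of 1.21, a log2 fold change of -0.85 (SE 0.2, edgeR p = 9.11e-05, adjusted p = 0.239). Here M42, M54 and M56 lay within the range of the animals without disease. Its left neighbour had a ratio of 0 in the 57 animals. With 1 lean animal left out, the call at chr14:96938001-96939000 was lost without M28, M42 or M66, with log2 fold changes of -0.82 to -0.74, that at chr1:37644001-37645000 without M42, at -0.74, and that at chr2:156176001-156177000 without any but M54, at -0.84 to -0.71. The last was also lost under DESeq2, with RLE in place of TMM factors and with a filter of 20 reads, at -0.87 to -0.85. It was lost as well, at -0.85, when the main fit was run on the sites and the random sample of windows only. The alternatives used this set of windows too, so the losses at chr2:156176001-156177000 cannot be put down to the changed setting alone. Both chr2:156176001-156177000 and chr14:96938001-96939000 were lost without animals tagged DMSO, at -0.73 and -0.87. The site called higher was chr20:5389001-5390000, where the lean animals held 1.59 RPM (M28), 2.07 (M42), 1.3 (M54), 1.35 (M56) and 1.33 (M66). All 5 were above the 17 animals without disease, which held 0.417 to 1.28 RPM with a median of 0.991, and the log2 fold change was 0.72 (SE 0.17, edgeR p = 8.48e-05, adjusted p = 0.239). This call was lost without M28, M42 or M56, without animals tagged DMSO and under DESeq2, while the log2 fold change stayed between 0.58 and 0.76 in these fits. DESeq2 called no site higher and 5 lower, 0.059% of the sites against 0.069% of the random sample of windows. Of the neighbours of this site, 1 had a ratio of 0.0188 and the other of 0.396. Without both M28 and M42 all 4 calls were lost. The log2 fold changes were then 0.49 at chr20:5389001-5390000, -0.6 at chr14:96938001-96939000, -0.66 at chr1:37644001-37645000 and -0.69 at chr2:156176001-156177000.

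In the comparison of 3 kidney disease animals, 4 sites were called, 0.0472%, where 0.00247% of all windows were called, and the 3 that were higher lay between 75 and 78 Mb of chromosome 1. Of all windows, 0.00126% were called higher and 0.00122% lower. Of the other windows with a ratio from 2 to below 5, 0.0101% were called, and of those with a ratio of 5 or more 0%. At p below 0.05 their shares were 2.35% and 1.57%. With p below 0.05, 242 sites passed, 2.85%, against 2.77% of all windows. Of these, 115 sites were higher (1.36%, all windows 1.12%) and 127 lower (1.5%, all windows 1.65%). The smallest p among higher sites was at chr1:77207001-77208000. It held 1.53 RPM in M23, 1.2 in M60 and 1.16 in M64, all above the 17 animals without disease at 0.343 to 0.991 RPM with a median of 0.74. This was a log2 fold change of 0.92 (SE 0.19, edgeR p = 5.85e-06, adjusted p = 1). The site chr1:76584001-76585000 lies in regions that the study lists for a difference in DNA methylation in kidney disease and in testis disease. Both are listed with Sult2a6, a sulfotransferase gene. At this site the 3 kidney disease animals held 1.27 to 1.46 RPM and the animals without disease 0.313 to 1.13 with a median of 0.792. The log2 fold change was 0.85 (SE 0.19, edgeR p = 1.95e-05, adjusted p = 1). At chr1:76599001-76600000 the 3 animals held 1.12 to 1.58 RPM, within which range the highest of the animals without disease, M40 with 1.39, also lay, and the log2 fold change was 0.91 (SE 0.22, edgeR p = 6.21e-05, adjusted p = 1). In the mean over the 57 animals that did not choose the sites, these 3 sites had ratios of 2.21, 2.27 and 2.23. A neighbour of each had a ratio of 2.01, 2.04 and 2.09, so that they did not stand alone there. The site called lower, chr19:21731001-21732000, held 0.263 RPM in M23, 0.325 in M60 and 0.704 in M64. The animals without disease held 0.427 to 1.36 RPM with a median of 0.826, so that M64 lay among them. The log2 fold change was -1.15 (SE 0.27, edgeR p = 4.26e-05, adjusted p = 1). When M23, M60 or M64 was left out 1 or 2 sites were called, 0.0118% to 0.0236% against 0% to 0.003% of the random sample of windows, and DESeq2 called 2, 0.0236% against 0.003%. The labels tag M60 and M64 with DMSO. Without tagged animals 1 kidney disease animal and 13 of the 17 animals remain, so no number of calls is given. The log2 fold changes of the 4 sites kept their direction, at 1.23, 0.75, 0.96 and -1.72.

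In the comparison of 4 testis disease animals, 5 sites were called, 0.059%, where 0.00529% of all windows were called, and the 4 that were higher lay in the same 3 Mb of chromosome 1. Of all windows, 0.00285% were called higher and 0.00244% lower. Of the other windows with a ratio from 2 to below 5, 0.0242% were called, and of those with a ratio of 5 or more 0%. At p below 0.05 their shares were 3.26% and 9.43%. There were 328 sites with p below 0.05, 3.87%, against 3.66% of all windows. Of these, 188 sites were higher (2.22%, all windows 1.47%) and 140 lower (1.65%, all windows 2.19%). At chr1:76959001-76960000 the 4 animals held 0.947 RPM (M29), 1.17 (M32), 1.11 (M33) and 1.09 (M41), and the 17 animals without disease 0.306 to 1.09 with a median of 0.537. The groups overlapped: M40 without disease also held 1.09, and M59, outside the 17, held 1.29. This was a log2 fold change of 0.91 (SE 0.19, edgeR p = 6.41e-06, adjusted p = 1). The other 3 were chr1:76648001-76649000, chr1:77043001-77044000 and chr1:77045001-77046000, with log2 fold changes of 0.76, 0.77 and 0.81 (SE 0.18, 0.19 and 0.2, edgeR p = 4.13e-05, 7.05e-05 and 9.77e-05, adjusted p = 1 each). The last of these lay just under the threshold and was not called in any alternative fit, where its log2 fold change was 0.74 to 0.85. In the mean over the 57 animals that did not choose the sites, chr1:76959001-76960000 had a ratio of 2.08 beside a neighbour of 2.09. A neighbour of chr1:77043001-77044000 and of chr1:77045001-77046000 had 2.03 each, against 2.1 and 2.04 at the sites. Among the 4, only chr1:76648001-76649000, at 2.19 beside 1.18 and 1.23, stood alone there. The site called lower, chr17:48406001-48407000, lies in a region that the study lists with Amph, which codes for amphiphysin, a protein of membrane curvature and endocytosis. It held 0.509 RPM in M29, 0.389 in M32, 0.329 in M33 and 0.456 in M41, and 0.48 to 1.02 in the animals without disease with a median of 0.805, so that 1 of the 4 animals lay within their range. The log2 fold change was -0.85 (SE 0.2, edgeR p = 6.43e-05, adjusted p = 1). Leaving out any of the 4 animals left 1 or 2 sites called, 0.0118% to 0.0236% against 0.002% to 0.005% of the random sample of windows, and DESeq2 called 2, 0.0236% against 0.006%. Over all alternative fits the log2 fold changes of the 5 sites stayed between 0.68 and 0.96 for those called higher and between -0.95 and -0.78 for the one called lower.

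The 37 sites between 75 and 78 Mb of chromosome 1 were looked at together after these calls were seen. Of the 37, 19 had p below 0.05 in the kidney disease comparison, where 2.77% of all windows had, and 24 in the testis disease comparison, where 3.66% had. There were 4 in the lean comparison (all windows 11.4%), 1 in the late puberty comparison (3.48%) and 3 in the multiple disease comparison (3.25%). All of these comparisons share the 17 animals without disease. The summed level of the 37 sites was 36.5 to 39.2 RPM in the 3 kidney disease animals and 37.5 to 39 RPM in the 4 testis disease animals. In the 19 animals without disease it ran from 15.8 RPM in M22 to 41.5 in M40, with a median of 29.6, so the disease animals lay in the upper part of their range. The 7 control lineage animals with disease held 17.4 to 39.9 RPM.

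In the comparison of 5 late puberty animals, 3 sites were called, 0.0354%, where 0.00355% of all windows were called, 0.000817% higher and 0.00274% lower. Of the other windows with a ratio from 2 to below 5, 0.00805% were called, and of those with a ratio of 5 or more 0.0627%. At p below 0.05 their shares were 3.37% and 9.85%. There were 278 sites with p below 0.05, 3.28%, against 3.48% of all windows. Of these, 145 sites were higher (1.71%, all windows 1.47%) and 133 lower (1.57%, all windows 2.01%). The 2 that were called higher lay close together on chromosome 3. At chr3:21409001-21410000 the 5 animals held 1.14 RPM (M35), 1.04 (M36), 0.958 (M38), 0.9 (M50) and 0.69 (M51), and the 17 animals without disease 0.264 to 0.788 with a median of 0.564. M51 was the only 1 of the 5 within their range. This was a log2 fold change of 0.72 (SE 0.17, edgeR p = 4.47e-05, adjusted p = 1). At chr3:21422001-21423000 the log2 fold change was 0.75 (SE 0.18, edgeR p = 5.14e-05, adjusted p = 1). In the mean over the 57 animals that did not choose the sites, these sites had ratios of only 1.66 and 1.64. The higher neighbour of each had 1.65 and 1.55, so that they barely stood over their flanks there. The 16 sites from 21 to 22 Mb of this chromosome were looked at after these calls were seen. Of the 16, 10 had p below 0.05 in this comparison, 4 in the lean comparison (all windows 11.4%), 2 in the lineage comparison (3.64%) and 0 in the others. Their summed level was 12.9 to 14.1 RPM with late puberty, 6.84 to 14 in the 19 animals without disease, with a median of 10.5, and 9.54 to 13.9 in the 7 control lineage animals with disease, with a median of 13.5. The late puberty animals overlapped with both of these groups. The site called lower was chr16:64927001-64928000, 1 of the 12 that vary together. It held 1.14 to 1.48 RPM in the 5 late puberty animals, 1.06 to 2.34 in the 7 control lineage animals with disease, and 0.834 to 7.34 in the 17 animals without disease, among which the 5 named animals with high levels lie. The log2 fold change was -0.91 (SE 0.22, edgeR p = 5.47e-05, adjusted p = 1). Without M35, M38 or M50 no site was called, where 0.002% to 0.006% of the random sample of windows were. Without M36 or M51 1 site was called, 0.0118% against 0.003% and 0.002%, and DESeq2 called 1, 0.0118% against 0.003%. Over all alternative fits the log2 fold changes stayed at 0.65 to 0.82 for chr3:21409001-21410000, 0.68 to 0.81 for chr3:21422001-21423000 and -0.98 to -0.84 for chr16:64927001-64928000.

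In the comparison of 14 multiple disease animals no site was called by edgeR, where 0.00141% of all windows were called. DESeq2 called 0, where 0.01% of the random sample of windows were called. Without M48, edgeR called 1, chr1:76959001-76960000, with a log2 fold change of 0.56, which is 0.0118% of the sites against 0.007% of the random sample of windows. There were 258 sites with p below 0.05, 3.04%, against 3.25% of all windows. Of these, 190 sites were higher (2.24%, all windows 1.83%) and 68 lower (0.802%, all windows 1.42%). Without M48, 361 sites passed, 4.26% against 3.94% of a random sample of the windows, 276 of them higher and 85 lower. The smallest p among the higher sites was at chr19:26331001-26332000, with 1.32 to 4.57 RPM and a median of 1.84 in the multiple disease animals and 0.858 to 2.81 with a median of 1.37 without disease, a log2 fold change of 0.56 (SE 0.17, edgeR p = 0.00138, adjusted p = 1). The highest value was that of M48, without which the log2 fold change was 0.37. The smallest p among the lower sites was at chr9:101987001-101988000, with 0.0992 to 0.869 RPM and a median of 0.633 in the multiple disease animals and 0.564 to 1.13 with a median of 0.864 without disease, a log2 fold change of -0.42 (SE 0.12, edgeR p = 0.00153, adjusted p = 1). The lowest value was that of M48, which held 2 reads and without which the log2 fold change was -0.37.

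Lineages were compared in animals with disease only, as the control lineage animals without disease chose the sites. Between 31 atrazine lineage animals and 7 control lineage animals no site was called by edgeR, where 0.00314% of all windows were called, and DESeq2 called 1, chr15:5888001-5889000, with a log2 fold change of 0.53, which is 0.0118% of the sites against 0.017% of the random sample of windows. Without M28 and M48, edgeR called chr20:145001-146000, with a log2 fold change of 0.69, again 0.0118% of the sites against 0.011% of the sample. In that fit 508 sites passed at p below 0.05, 5.99% against 4.5% of a random sample of the windows, 301 of them higher in the atrazine lineage and 207 lower. With both animals kept there were 318 sites with p below 0.05, 3.75%, against 3.64% of all windows. Of these, 154 sites were higher in the atrazine lineage (1.82%, all windows 1.86%) and 164 lower (1.93%, all windows 1.77%). The diseases of the 2 groups differ, so lineage and disease cannot be told apart here. The smallest p was at chr3:16696001-16697000, in a region that the study lists with AABR07051551.1 and which held 0.735 to 1.06 RPM with a median of 0.903 in the control lineage animals and 0.198 to 0.898 with a median of 0.634 in the atrazine lineage animals, a log2 fold change of -0.52 (SE 0.14, edgeR p = 0.00047, adjusted p = 1). Among the sites higher in the atrazine lineage it was at chr1:96231001-96232000, with 0.443 to 0.905 RPM in the control lineage animals and 0.496 to 1.45 in the atrazine lineage animals, a log2 fold change of 0.49 (SE 0.14, edgeR p = 0.00071, adjusted p = 1). The groups overlapped at both sites.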

How the data were processed

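Sperm chromatin was immunoprecipitated with an antibody that the study describes as one to histone H3, and sequenced in paired reads of about 50 bp. Per the labels and the methods, the authors trimmed the reads with Trimmomatic, mapped them to the rat genome Rnor 6.0 with Bowtie2, processed them with SAMtools, and counted reads in windows of 1000 bp. The deposited values used here are counts, with no normalization, of 66 animals in 2782040 windows. The tables also hold an RPKM column for each animal, and the tables of single diseases repeat the counts. These 298 columns were not used. The tables also hold the authors' fold changes and p-values, which were not used either.

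The sites, lists and stretches were chosen with earlier results of these data known. RPM is the count per 1000000 counts of the library. Spread was the SD of log2(RPM + 0.05). The SD from counting alone was taken from the read numbers as independent counts, so reads copied in PCR make it too low. Counts were compared with edgeR 4.0.16 (R 4.3.3) by quasi-likelihood test with TMM factors, leaving out windows below 10 reads in the mean. The dispersion trend came from 200000 random windows. The fit was tested on simulated data. Alternatives, DESeq2 1.42.0 among them, were run on the sites and 100000 random windows. Windows named are the 5 sites with the highest ratio to their flanks (at least 100 reads in each adjacent window), the 5 with the largest and the 5 with the smallest spread (20 reads or more in the mean), the smallest p in each direction of each comparison, and those at the limits of the rule. Every site called was added after its values were seen. Gene names are those that the study's lists of regions pair with a window. Depth was 19909382 to 239635003 counts per animal.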

Additional observations from a re-analysis of the deposited data

Results flagged for a closer look

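In groups of 4 to 10 animals, an animal was singled out where its gap to the next value was large against the range of its group (Dixon's limit at 95%). Of 29 sets of values looked at, 3 held such an animal, and chance gives about 1 in 20. Lean animal M28 had reads in the sites of 1.5 times their flanks, below the other lean animals at 1.64 to 1.68. Control lineage animal M17 had 1.73, above the other control lineage animals with disease at 1.63 to 1.67. The same animal had 67.6% of the sites at a ratio of 2 or more, the lowest of its group. M17 is also the control lineage animal with most sites departed downward, 381, and the highest of the control lineage at the 12 sites that vary together, with a mean of 1.84 RPM.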

How the results depend on the processing

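No paired analysis was possible because animals belong to 1 group each and the labels give no litter or batch that links animals. The number of sites was 535 with a ratio from 3, 2610 with adjacent windows below 1.5, and 8401 to 8714 with 1 of the 9 animals left out, of which 7385 to 7944 were sites of the full choice. The median over the 9 animals in place of the mean gave 8745 windows, 6975 of them the same. The share of the sites at a ratio of 2 or more in the 57 animals stayed between 75.1% and 80.7% in the 3 alternatives tried. The median ratio to the flank was 1.97 with windows 2 to 5 away as the flank. In the lean comparison 9 sites were called against all 19 animals without disease, 1 without M28 and M42 (chr19:27644001-27645000), and 2 to 24 with 1 lean animal left out. At p below 0.05, 639 passed without M28, 362 without M28 and M42, and 639 to 1555 with 1 left out, against 6.32% to 16.6% of a random sample of the windows where the sites had 7.53% to 18.3%. In the kidney disease comparison 2 were called by DESeq2, and 1 to 2 with 1 animal left out. With 1 left out, 157 to 310 passed at p below 0.05, 1.85% to 3.66% against 1.91% to 3.92% of the sample. The fit without animals tagged DMSO leaves 1 diseased animal that is assumed to vary like the others, so its number of calls is not given. In the testis disease comparison 3 were called without the filter, 0.0354% against 0.007% of the sample. Against all animals without disease 3 were called, 0.0354% against 0.002%. DESeq2 called 2, and 1 to 2 were called with 1 left out. In the late puberty comparison 1 was called against all animals without disease, 0.0118% against 0.003% of the sample. DESeq2 called 1, and 0 to 1 were called with 1 left out. In the multiple disease comparison 1 was called without M48. In the lineage comparison 1 was called without M28 and M48 and 1 by DESeq2, and 508 passed at p below 0.05 without M28 and M48. The cause was not tested. The 20 windows named in comparisons kept their direction in all alternatives, and the 16 that were called lost the call at p below 0.0001 in 89 of their 183 alternatives. Depth limits single sites: the median site held 50 reads in the median animal and 6 in M48.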
